A study of Mus musculus with 14 samples.

Results

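The genes described here are the glucocorticoid receptor Nr3c1, the mineralocorticoid receptor Nr3c2 and 7 genes whose transcription glucocorticoid is known to raise, namely Fkbp5, Sgk1, Tsc22d3, Zbtb16, Plin4, Sult1a1 and Cdkn1a. They were taken by symbol from the gene count table of mouse hippocampus, where all 9 were found among 55536 Ensembl genes, and all 9 were among the 38070 genes tested. They were chosen by name and not by a cut on measured values, but with earlier results of these data known.

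Corticosterone, the main glucocorticoid of the mouse, crosses into the brain and binds both receptors. The mineralocorticoid receptor holds the hormone tightly and is abundant in hippocampal neurons, while the glucocorticoid receptor binds it less tightly and is occupied mainly at the daily peak and under stress. The unbound glucocorticoid receptor sits in the cytoplasm with heat shock proteins, moves to the nucleus on binding hormone and acts on transcription largely at palindromic DNA elements. Several of its targets dampen the response, since Fkbp5 encodes a chaperone that lowers the receptor's affinity for hormone and Tsc22d3 encodes an anti-inflammatory leucine zipper protein, GILZ.

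The 14 libraries were poly(A) RNA of hippocampus from mice of 10 months and made a design of 2 by 2. The groups were MRL with 4 libraries, MRL-IRAK4-KD with 4, C57BL6/J with 3 and IRAK4-KD with 3. MRL stands for B6.MRL-Faslpr/J mice, which carry the lpr allele of the death receptor gene Fas on a C57BL/6 background and develop lupus-like disease. IRAK4-KD mice carry a kinase-dead form of IRAK4, a kinase that relays signals of Toll-like and interleukin-1 receptors, MRL-IRAK4-KD mice carry both, and C57BL6/J mice carry neither. Neither mutation is limited to a cell type, and the labels give no sex, hour of dissection or hormone level. The labels number the libraries but do not say which animal each came from, so the p-values measure the spread between these libraries.

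Gene totals ran from 279723718 to 571925600 counts per library. Irak4 lay between 1.54 and 2.72 counts per 1000000 (CPM, on TMM-scaled library totals) in every library, which says nothing of a mutation that leaves the transcript in place. The protein-coding Fas transcript Fas-201 was at 0 counts in all 8 libraries labelled MRL or MRL-IRAK4-KD and at 345 to 584 counts in 5 of the other 6, but it was also at 0 in the library labelled IRAK4-KD replicate 3. That library held 514 counts of Fas-204, a transcript annotated for nonsense-mediated decay, within the 268 to 964 of the lpr groups, so its Fas transcripts went against its label, and its summed striatal markers were 344 CPM against 59.5 to 127 in the others. MRL-IRAK4-KD replicate 4 stood apart at 113 on the first principal component, which held 49.4% of the variance and on which the other libraries lay between -20.1 and 4.68. Hippocampal markers were above 0 in all libraries, Xist was at 290.4 CPM or more, and Ddx3y and Eif2s3y were at 0. In bulk tissue, fewer cells of a type and less RNA per cell cannot be told apart.

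Both receptors were strongly transcribed in every library. Nr3c1 (ENSMUSG00000024431.15, mm10 chromosome 18, 39410545 to 39519421, minus strand) was at 94.1, 88.7, 99.7 and 90.0 CPM in MRL replicates 1 to 4. It was at 74.6, 97.9, 88.0 and 80.6 CPM in MRL-IRAK4-KD, at 79.1, 80.9 and 85.0 CPM in C57BL6/J, and at 74.4, 89.2 and 96.6 CPM in IRAK4-KD. The MRL libraries lay above the 3 C57BL6/J libraries and overlapped both mutant groups. The fitted log2 fold change of Nr3c1 was 0.13 ± 0.10 (SE) in MRL over MRL-IRAK4-KD (adjusted p = 0.605) and 0.19 ± 0.11 in MRL over C57BL6/J (adjusted p = 0.931).

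Nr3c2 (ENSMUSG00000031618.13, mm10 chromosome 8, 76899442 to 77245012, plus strand) varied far more between libraries than Nr3c1. It was at 187, 97.6, 116 and 95.6 CPM in MRL, and the MRL-IRAK4-KD libraries were at 153, 153, 179 and 73.4 CPM. The C57BL6/J libraries held 141, 113 and 141 CPM and the IRAK4-KD libraries 158, 145 and 196 CPM. MRL replicates 2 to 4 and MRL-IRAK4-KD replicate 4 were low, while MRL replicate 1 was the second highest of all. The IRAK4-KD libraries lay above the C57BL6/J libraries, with a log2 fold change of 0.34 ± 0.30 that did not pass the test (adjusted p = 1). Without the library labelled IRAK4-KD replicate 3 it was 0.20. In MRL over MRL-IRAK4-KD it was -0.17 ± 0.26 (adjusted p = 0.802). Leaving out MRL-IRAK4-KD replicate 4 made this -0.38. The 8 hippocampal markers summed to 613 CPM in MRL replicate 1 and to 349.8, 456 and 424 CPM in MRL replicates 2 to 4, against 430.1 to 623 CPM in the other groups. Nr3c2 followed that sum over the 14 libraries with a Pearson r of 0.708, given as a description, and the part of dissection in its level was not tested.

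Per length, in transcripts per 1000000 (TPM) computed from the transcript counts, the mineralocorticoid receptor was the more abundant. Nr3c2 had a median level of 53.6 TPM (21.4 to 77.7) over the 14 libraries and Nr3c1 of 28.5 TPM (22.0 to 34.7). The ratio of Nr3c2 to Nr3c1 (mean ± SD) was 1.45 ± 0.482 over the 4 MRL libraries and 1.80 ± 0.607 over the 4 MRL-IRAK4-KD libraries. It was 1.78 ± 0.232 over the 3 C57BL6/J and 2.12 ± 0.296 over the 3 IRAK4-KD libraries. It was above 1 in every library other than MRL-IRAK4-KD replicate 4, where it was 0.974, and the 4 groups overlapped. Among all 9 genes Tsc22d3 had the highest median level at 69.1 TPM, followed by Nr3c2, Sgk1 at 42.3 TPM, Fkbp5 at 29.8 TPM, Nr3c1, Zbtb16 at 22.1 TPM, Sult1a1 at 13.6 TPM, Cdkn1a at 7.48 TPM and Plin4 at 2.28 TPM. Each gene overlapped its neighbours in this order over the libraries, as for Plin4, which reached 5.93 TPM, and Cdkn1a, which started at 4.65 TPM.

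**Figure D1:**
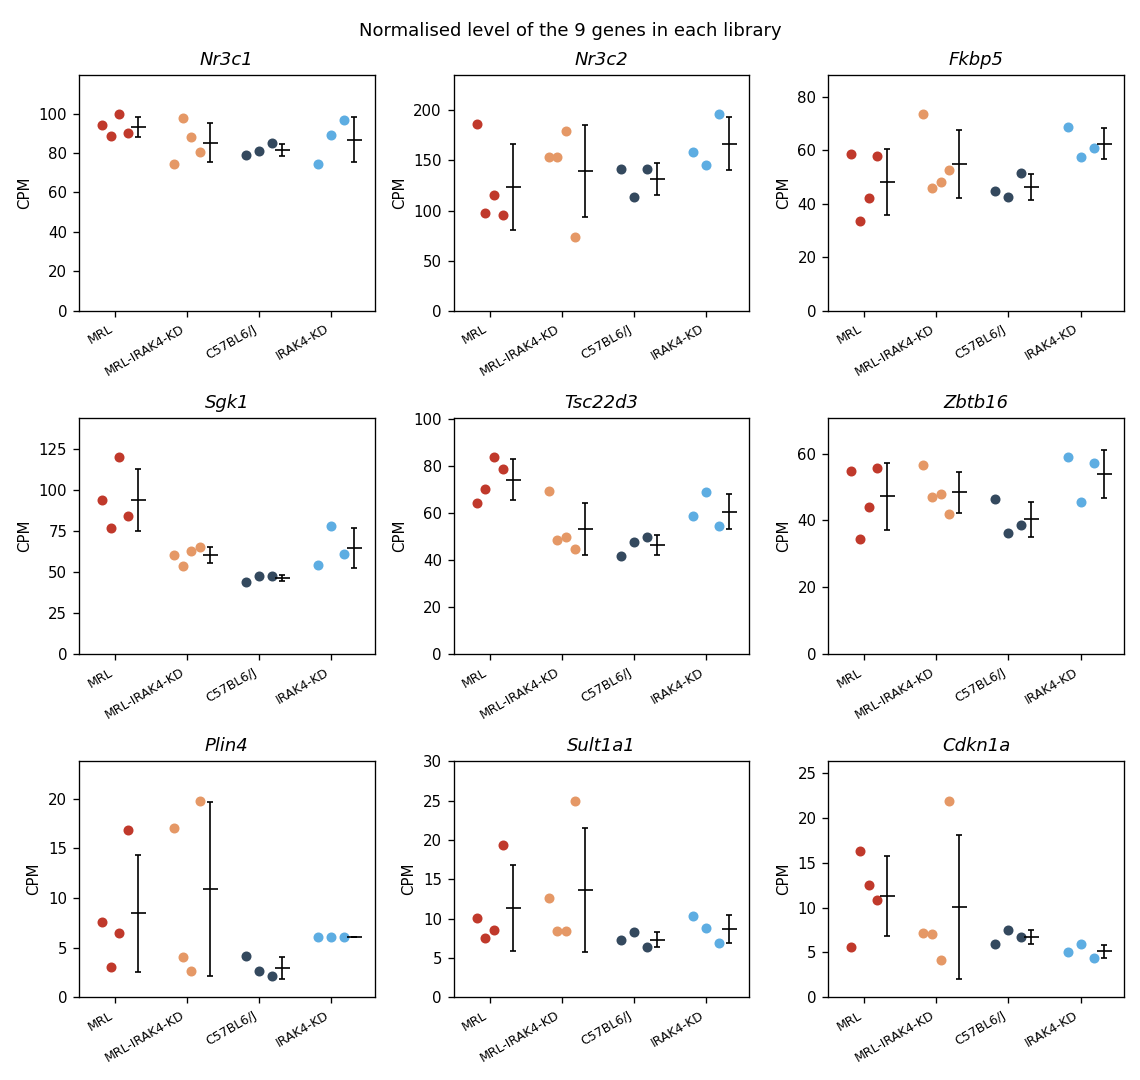
Level of each of the 9 genes in CPM (vertical axis, from 0) in each library (points) by group, with the group mean and SD in black. Sgk1 is at 76.8 CPM or more in the 4 MRL libraries and at most 64.9 CPM in MRL-IRAK4-KD, while Nr3c1 differs little between groups.

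Sgk1 encodes a kinase that acts on ion channels and transporters and is an early target of both receptors. Sgk1 (ENSMUSG00000019970.15, mm10 chromosome 10, 21882184 to 21999903, plus strand) was at 93.7, 76.8, 119.7 and 83.9 CPM in MRL, while the MRL-IRAK4-KD libraries held 60.2, 53.3, 62.8 and 64.9 CPM. It was at 43.9, 47.2 and 47.5 CPM in C57BL6/J and at 54.3, 77.9 and 61.0 CPM in IRAK4-KD. Each MRL library was above each MRL-IRAK4-KD and C57BL6/J library, and only IRAK4-KD replicate 2 reached the MRL range. C57BL6/J was the lowest group, with no overlap with any other.

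The fitted log2 fold change of Sgk1 was 1.02 ± 0.16 in MRL over C57BL6/J, or 2.03-fold, with an adjusted p of 0.178. In MRL over MRL-IRAK4-KD it was 0.63 ± 0.14, or 1.55-fold, with an adjusted p of 0.239, and without MRL-IRAK4-KD replicate 4 it was 0.68 (adjusted p = 0.136). For this gene taken alone, the 2-sided exact permutation test of 4 against 4 libraries gave p = 0.0286, the smallest value that this design allows. In IRAK4-KD over C57BL6/J it was 0.48 ± 0.16 (adjusted p = 1), and 0.52 without the library labelled IRAK4-KD replicate 3. The interaction, which tests whether the mutant contrast differs between the 2 backgrounds, gave 1.11 ± 0.21 on the log2 scale, an unadjusted p of 0.000148 and an adjusted p of 0.367. Without that library the interaction was 1.15 (adjusted p = 0.920). In MRL-IRAK4-KD over IRAK4-KD Sgk1 differed by -0.09 ± 0.15 (adjusted p = 0.850). Sgk1 did not pass the threshold of 0.05 in these fits, but did under others, since DESeq2 gave adjusted p-values of 0.00934 in MRL over MRL-IRAK4-KD, 5.61e-06 in MRL over C57BL6/J and 0.0035 for the interaction. With limma-voom they were 0.0362 and 0.0254 in the first pair. Leaving out MRL-IRAK4-KD replicate 4, which belongs to neither group but shares the estimate of spread, gave 0.0292 in MRL over C57BL6/J, and leaving out the library labelled IRAK4-KD replicate 3 as well gave 0.0460.

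Sgk1 has several starts of transcription, and 90.4% of its counts were assigned to Sgk1-204, which begins at 21882184 and runs to 21999893. Over the MRL libraries this transcript averaged 83.7 ± 13.2 CPM (SD, n = 4) and over MRL-IRAK4-KD 54.1 ± 5.21 (n = 4). It averaged 42.0 ± 1.79 (n = 3) over C57BL6/J and 59.5 ± 10.8 (n = 3) over IRAK4-KD, so the order of the groups was that of the gene. Windows of 300 bases at annotated starts of 7 of the 9 genes, 15 windows in all, were searched in RefSeq's mm10 promoter table, which held none for Nr3c1 or Zbtb16. The full palindromic receptor element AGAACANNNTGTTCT was in 1 of the 15 windows, at a start of Sgk1, and in 3 of all 32851 windows (0.00913%). Its 6-base arm TGTTCT, on either strand, was in 5 of the 15 windows, at starts of Sgk1, Tsc22d3 and Sult1a1, and in 19.0% of all windows. Of the 15 windows 6 were at starts of Sgk1, so the windows do not stand for genes in equal parts. No window lay at 140543187, the start of Tsc22d3-201, the transcript with most Tsc22d3 counts. The palindrome lies at 21993701 to 21993715 of chromosome 10. Its first base is at -189 from the start at 21993890, that of Sgk1-202, and at -965 from the start at 21994666, that of Sgk1-201, but 111517 bases downstream of the start of Sgk1-204. These matches are letters in a window, not measured binding. The 250 bases before 3 starts are shown because they set the palindrome beside the start that holds most Sgk1 counts and beside the upstream start of Tsc22d3, which RefSeq places at 140600522. Capitals mark the palindrome and the 6-base arm on either strand.
Sgk1, start of Sgk1-204, chr10:21881934-21882183, plus strand: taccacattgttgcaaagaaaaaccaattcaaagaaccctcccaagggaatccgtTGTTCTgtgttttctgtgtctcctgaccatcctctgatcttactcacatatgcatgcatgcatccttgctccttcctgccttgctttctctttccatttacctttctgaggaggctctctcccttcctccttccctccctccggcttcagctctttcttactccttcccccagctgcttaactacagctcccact
Sgk1, start of Sgk1-202, chr10:21993640-21993889, plus strand: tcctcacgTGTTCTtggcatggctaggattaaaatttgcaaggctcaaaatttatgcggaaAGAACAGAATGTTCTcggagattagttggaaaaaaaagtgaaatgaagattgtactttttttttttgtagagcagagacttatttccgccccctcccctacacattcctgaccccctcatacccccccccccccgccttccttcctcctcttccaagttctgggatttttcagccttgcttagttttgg
Tsc22d3, upstream start, chrX:140600523-140600772, minus strand: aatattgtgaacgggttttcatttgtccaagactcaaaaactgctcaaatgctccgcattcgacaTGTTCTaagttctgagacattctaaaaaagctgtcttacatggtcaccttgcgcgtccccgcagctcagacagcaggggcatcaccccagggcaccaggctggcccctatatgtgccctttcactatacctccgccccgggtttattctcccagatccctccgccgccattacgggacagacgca

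Tsc22d3 (ENSMUSG00000031431.13, mm10 chromosome X, 140539528 to 140600659, minus strand) resembled Sgk1. It was at 64.4, 70.1, 83.7 and 78.5 CPM in MRL, and the MRL-IRAK4-KD libraries were at 69.5, 48.6, 49.9 and 44.9 CPM. The C57BL6/J libraries held 41.6, 47.5 and 49.9 CPM and the IRAK4-KD libraries 58.8, 68.8 and 54.2 CPM. The MRL libraries were above the C57BL6/J libraries, and so were the IRAK4-KD libraries, but MRL-IRAK4-KD replicate 1 lay within the MRL range. The log2 fold change was 0.68 ± 0.15 in MRL over C57BL6/J (adjusted p = 0.547), 0.48 ± 0.14 in MRL over MRL-IRAK4-KD (adjusted p = 0.400) and 0.39 ± 0.16 in IRAK4-KD over C57BL6/J (adjusted p = 1). The exact permutation test of MRL against MRL-IRAK4-KD gave p = 0.0571. The interaction was 0.87 ± 0.21 (adjusted p = 0.914), and 0.94 without the library labelled IRAK4-KD replicate 3, where the value in IRAK4-KD over C57BL6/J was 0.46. DESeq2 gave an adjusted p of 0.0134 in MRL over C57BL6/J and did not call Tsc22d3 elsewhere.

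Tsc22d3 makes several proteins from different starts. Tsc22d3-201, which begins at 140543187, held 58.1% of its counts, Tsc22d3-202 held 26.1% and Tsc22d3-203, which begins far upstream at 140600659, held 12.4%. In the order MRL, MRL-IRAK4-KD, C57BL6/J and IRAK4-KD, Tsc22d3-201 averaged 44.6 ± 7.93, 33.7 ± 10.4, 20.97 ± 6.09 and 35.3 ± 5.87 CPM (SD, n = 4, 4, 3 and 3). Tsc22d3-203 averaged 9.53 ± 0.954, 6.03 ± 4.05, 4.44 ± 0.696 and 8.14 ± 0.586 CPM in the same order. For both transcripts the 3 C57BL6/J libraries lay below every MRL and IRAK4-KD library. Tsc22d3-202, a transcript annotated without a protein, was at 17.1 ± 2.53, 12.1 ± 6.22, 19.2 ± 3.603 and 15.6 ± 2.77 CPM and had its highest mean in C57BL6/J. Counts of overlapping transcripts are estimates, and MRL-IRAK4-KD replicate 4 was unlike the others here, with 90.8% of its Tsc22d3 counts on Tsc22d3-201. The assignment was unsteady for other members too. Nr3c1-203 held 0% of the Nr3c1 counts in C57BL6/J replicates 1 and 2 and 98.2% in MRL-IRAK4-KD replicate 4.

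**Figure D2:**
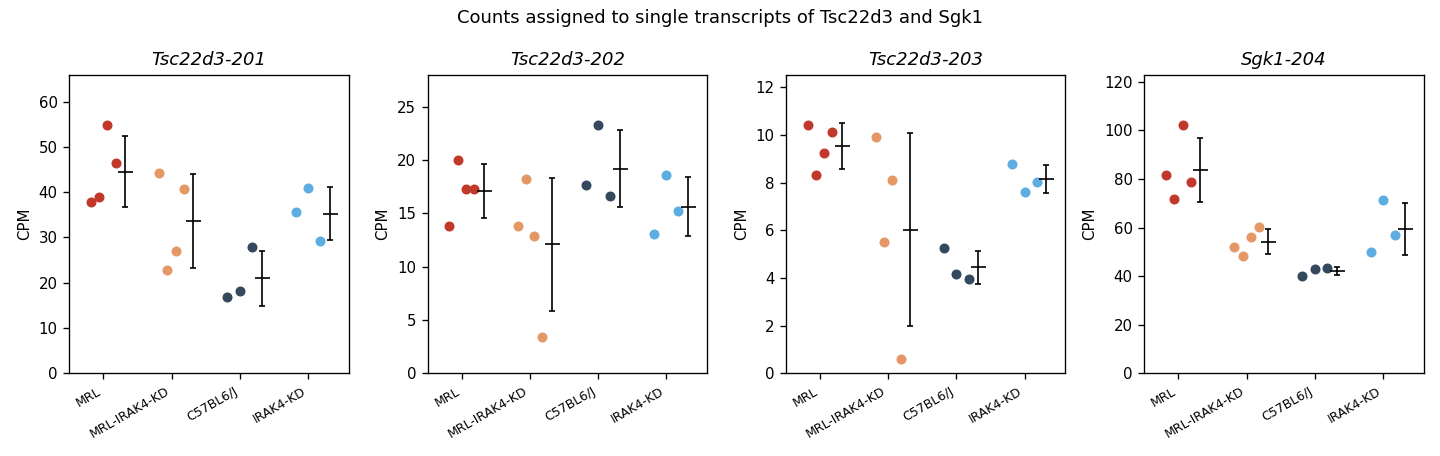
Counts assigned to 3 transcripts of Tsc22d3 and to the main transcript of Sgk1, in CPM (vertical axes, from 0), by group; points are libraries, with the group mean and SD in black. Tsc22d3-201 and Tsc22d3-203 are lowest in C57BL6/J, whereas Tsc22d3-202 is not.

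Fkbp5 and Zbtb16, the latter encoding a zinc finger repressor known as PLZF, are among the targets most used to read glucocorticoid exposure, and neither showed the order of groups seen for Sgk1. Fkbp5 (ENSMUSG00000024222.17, mm10 chromosome 17, 28399094 to 28517527, minus strand) was at 58.7, 33.5, 42.2 and 57.8 CPM in MRL, while the MRL-IRAK4-KD libraries held 73.6, 45.9, 48.0 and 52.6 CPM. It was at 44.7, 42.5 and 51.6 CPM in C57BL6/J and at 68.8, 57.5 and 61.0 CPM in IRAK4-KD. The IRAK4-KD libraries lay above the C57BL6/J libraries, with a log2 fold change of 0.43 ± 0.21 (adjusted p = 1), and MRL replicates 2 and 3 lay below every library outside MRL. In MRL over MRL-IRAK4-KD the value was -0.20 ± 0.18 (adjusted p = 0.663). Leaving out the highest library, MRL-IRAK4-KD replicate 1, made it -0.024.

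Zbtb16 (ENSMUSG00000066687.5, mm10 chromosome 9, 48654297 to 48836222, minus strand) was at 54.9, 34.6, 43.9 and 55.6 CPM in MRL, and the MRL-IRAK4-KD libraries were at 56.6, 46.9, 48.0 and 42.0 CPM. The C57BL6/J libraries held 46.3, 36.1 and 38.6 CPM and the IRAK4-KD libraries 58.9, 45.5 and 57.1 CPM. All 4 groups overlapped one another. The log2 fold change was 0.42 ± 0.18 in IRAK4-KD over C57BL6/J (adjusted p = 1) and -0.04 ± 0.15 in MRL over MRL-IRAK4-KD (adjusted p = 0.946). Without the library labelled IRAK4-KD replicate 3 the former was 0.37 for Zbtb16 and 0.45 for Fkbp5.

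Plin4, a coat protein of lipid droplets, Sult1a1, a phenol sulfotransferase, and Cdkn1a, the cell cycle inhibitor p21, were low in count and varied widely between libraries of a group. Plin4 (ENSMUSG00000002831.13, mm10 chromosome 17, 56100591 to 56109803, minus strand) was at 7.56, 3.06, 6.43 and 16.8 CPM in MRL, and the MRL-IRAK4-KD libraries were at 17.0, 4.10, 2.65 and 19.8 CPM. The C57BL6/J libraries held 4.17, 2.59 and 2.11 CPM and the IRAK4-KD libraries 6.09, 6.08 and 6.07 CPM. The IRAK4-KD libraries lay above the C57BL6/J libraries, and the lpr groups ranged over both. Its log2 fold change was 1.52 ± 0.66 in MRL over C57BL6/J (adjusted p = 0.895) and 1.04 ± 0.68 in IRAK4-KD over C57BL6/J (adjusted p = 1). In MRL over MRL-IRAK4-KD it was -0.36 ± 0.58 (adjusted p = 0.818) and turned to 0.10 without MRL-IRAK4-KD replicate 4.

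Sult1a1 (ENSMUSG00000030711.16, mm10 chromosome 7, 126672865 to 126676432, minus strand) was at 10.1, 7.52, 8.53 and 19.4 CPM in MRL, and the MRL-IRAK4-KD libraries were at 12.6, 8.42, 8.42 and 25.0 CPM. The C57BL6/J libraries held 7.26, 8.31 and 6.42 CPM and the IRAK4-KD libraries 10.3, 8.77 and 6.84 CPM. Replicate 4 of each lpr group was the highest of its group, as for Plin4. Its log2 fold change in MRL over MRL-IRAK4-KD was -0.26 ± 0.35 (adjusted p = 0.782) and turned to 0.22 without MRL-IRAK4-KD replicate 4. The choroid plexus list was high in the same libraries, summing to 1654 CPM in MRL replicate 4, 1839 CPM in MRL-IRAK4-KD replicate 1 and 7784 CPM in MRL-IRAK4-KD replicate 4, against 66.4 to 1439 CPM in the other 11. Over the 14 libraries the Pearson r with that sum was 0.744 for Plin4 and 0.737 for Sult1a1, a description only, and its part in their levels was not tested.

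Cdkn1a (ENSMUSG00000023067.14, mm10 chromosome 17, 29090976 to 29100727, plus strand) was at 5.62, 16.3, 12.5 and 10.8 CPM in MRL, and the MRL-IRAK4-KD libraries were at 7.17, 7.06, 4.20 and 22.0 CPM. The C57BL6/J libraries held 5.88, 7.49 and 6.73 CPM and the IRAK4-KD libraries 5.08, 5.89 and 4.37 CPM. The 4 libraries above 10 CPM were MRL replicates 2 to 4 and MRL-IRAK4-KD replicate 4, which were also low in Nr3c2. The log2 fold change was 0.98 ± 0.46 in MRL-IRAK4-KD over IRAK4-KD (adjusted p = 0.553) and 0.16 ± 0.42 in MRL over MRL-IRAK4-KD (adjusted p = 0.903). Without MRL-IRAK4-KD replicate 4 these were 0.27 and 0.89.

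No member passed an adjusted p of 0.05 by edgeR's quasi-likelihood test in any comparison, and at most 3 of 9 had an unadjusted p under 0.05. In MRL over MRL-IRAK4-KD 0 of 9 members were called, against 0.0972% of all genes tested, and 2 (Sgk1 and Tsc22d3, both higher) had an unadjusted p under 0.05, against 11.4% of all genes. DESeq2 and limma-voom each called 1 member there, Sgk1. In IRAK4-KD over C57BL6/J 0 were called, against 0.147%, and 3 (Sgk1, Tsc22d3 and Zbtb16, all higher) had an unadjusted p under 0.05, against 3.8%. DESeq2 and limma-voom called 0 there. In MRL over C57BL6/J 0 were called, against 0% of all genes, and 3 (Sgk1, Tsc22d3 and Plin4, all higher) had an unadjusted p under 0.05, against 5.55%. DESeq2 called 2 there and limma-voom 1. In MRL-IRAK4-KD over IRAK4-KD 0 were called, against 0.0735%, and 0 had an unadjusted p under 0.05, against 8.63%, with 0 called by DESeq2 or limma-voom. The interaction gave 0 calls, against 0.00263%, and 2 members (Sgk1 and Tsc22d3) at an unadjusted p under 0.05, against 4.17%, with 1 called by DESeq2 and 0 by limma-voom. The median log2 fold change of the members was -0.04, 0.39, 0.64, -0.09 and 0.24 in these 5 comparisons in turn, beside medians between -0.01 and 0.00 over all genes. Comparisons that name the same group share its libraries.

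**Figure D3:**
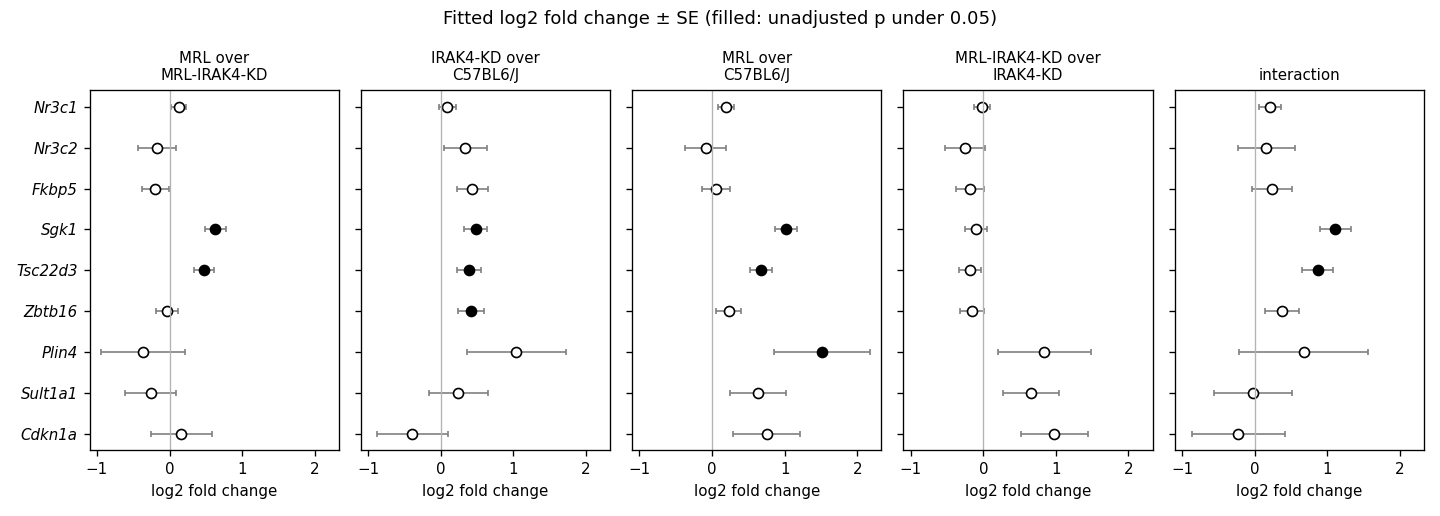
Fitted log2 fold change of each gene (horizontal axis) with its SE in each of the 5 comparisons; filled points have an unadjusted p under 0.05 and none passed adjustment. Sgk1 and Tsc22d3 lie to the right of 0 in the 3 comparisons over C57BL6/J or within the lpr background and in the interaction, while in MRL-IRAK4-KD over IRAK4-KD both lie near 0.

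Of 20 other genes known to respond to glucocorticoid, 0 passed adjustment in MRL over MRL-IRAK4-KD. At an unadjusted p under 0.05, 4 were higher and 0 lower, against 11.4% of all genes in either direction. Their median log2 fold change was 0.11. Without MRL-IRAK4-KD replicate 4 these were 8 higher, 0 lower and 0.23, and the share of all genes in that fit is not given here. The pair with the smallest p were Per1, a clock gene, for which MRL averaged 94.2 ± 31.7 CPM (SD, n = 4) and MRL-IRAK4-KD 52.9 ± 11.5 (n = 4, log2 fold change 0.83 ± 0.22, adjusted p = 0.335), and Dusp1, a phosphatase of MAP kinases, at 29.1 ± 21.2 and 10.3 ± 2.22 CPM (1.51 ± 0.40, adjusted p = 0.335), the latter at 0.90 without MRL replicate 2. Both are also induced by neuronal activity. In MRL over C57BL6/J all 20 had a positive log2 fold change with a median of 0.33, beside -0.0046 over all genes. Of the 20, 3 had an unadjusted p under 0.05, against 5.55% of all genes, and 0 passed adjustment. In IRAK4-KD over C57BL6/J 10 of the 20 had a positive log2 fold change, and their median was 0.0072, beside -0.0079 over all genes. There 2 were higher and 0 lower at an unadjusted p under 0.05, against 3.8% of all genes, and 0 passed adjustment.

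Among 9 genes that make, break down or export the hormone, 8 could be tested and Serpina6 could not. For Hsd11b1, which regenerates active corticosterone inside cells, MRL averaged 21.2 ± 4.34 CPM and MRL-IRAK4-KD 27.2 ± 2.65 (log2 fold change -0.36 ± 0.15, adjusted p = 0.437). Hsd11b2, which inactivates it, had at most 66 counts in a library. Abcb1a, an export pump of the vessel wall that carries corticosteroids, was at 25.0 ± 7.10 and 13.9 ± 4.17 CPM (0.84 ± 0.23, adjusted p = 0.338). Of this list 1 gene was higher and 1 lower at an unadjusted p under 0.05, against 11.4% of all genes in either direction.

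Of 12 chaperones that hold the receptor 0 were higher and 3 lower in MRL than in MRL-IRAK4-KD at an unadjusted p under 0.05. This stood against 11.4% of all genes in either direction. Of the chaperones 0 were called and the median was -0.13. Hsp90aa1, which keeps the receptor able to bind hormone, had a log2 fold change of -0.62 ± 0.26 and Bag1 one of -0.34 ± 0.15 (adjusted p = 0.437 and 0.439). Both values rested on MRL-IRAK4-KD replicate 4, without which they were -0.13 ± 0.076 and -0.10 ± 0.066, and 1 chaperone was then higher and 0 lower. For Hsp90aa1 the MRL libraries lay at 1025 to 1135 CPM and the MRL-IRAK4-KD libraries at 1152 to 3057 CPM, the top value being that of replicate 4. Among 11 coregulators 0 had an unadjusted p under 0.05, with the acetyltransferase Ep300 at 0.31 ± 0.15 and the remodelling subunit Smarca4 at -0.34 ± 0.18 (adjusted p = 0.445 and 0.449). Without that library Ep300 was at 0.16 ± 0.099 and Smarca4 at -0.029 ± 0.061. Among 12 peptides and receptors of the stress axis 2 were higher and 2 lower at an unadjusted p under 0.05, against 11.4% of all genes, and 0 were called. For Crhr1, a receptor of corticotropin-releasing hormone, MRL averaged 14.4 ± 4.03 CPM and MRL-IRAK4-KD 10.3 ± 1.85 (log2 fold change 0.47 ± 0.20, adjusted p = 0.437). Ucn3, a ligand of the same family, had 714 counts in MRL replicate 2, 4 in MRL replicate 1 and 0 in the other MRL and all 4 MRL-IRAK4-KD libraries, so 1 library carried the difference.

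Across the 14 libraries some pairs of members were closely related, while the members did not all vary together. Correlations of log2(CPM + 0.1) were computed for all 36 pairs of members, with permutation p-values adjusted over the 36. Sgk1 and Tsc22d3 had a Pearson r of 0.817 and a Spearman rho of 0.749 (adjusted p = 0.00387 and 0.0244). After each group's mean was taken out r was 0.360, so this relation lay largely between the groups. Fkbp5 and Zbtb16 had an r of 0.822 and a rho of 0.811 (adjusted p = 0.00387 and 0.00948), and 0.799 after the group means were taken out. Plin4 and Sult1a1 had an r of 0.852 and a rho of 0.851 (adjusted p = 0.00252 and 0.00468), and 0.835 after the group means were taken out. Nr3c2 and Cdkn1a ran against each other, with an r of -0.928 and a rho of -0.886 (adjusted p = 0.00036 and 0.00252), and -0.943 after the group means were taken out. Leaving out the 2 libraries farthest in the first gene of each pair gave 0.780, 0.730, 0.786 and -0.881. With the summed hippocampal and neocortex markers, Nr3c2 had an r of 0.708 and -0.359 and Cdkn1a of -0.663 and 0.430. Without MRL-IRAK4-KD replicate 4 these were 0.873 and -0.824 for Nr3c2 and -0.819 and 0.928 for Cdkn1a. The part of dissection in the relation of Nr3c2 and Cdkn1a was not tested. No other pair of the 36 passed an adjusted p of 0.05. Nr3c2 and Zbtb16 had an r of 0.533 and a rho of 0.666 (adjusted p = 0.180 and 0.0828), and an r of 0.820 without the 2 farthest libraries. Nr3c1 had its highest r with Sgk1, at 0.574 (rho 0.556, adjusted p = 0.165 and 0.199). This was 0.612 without the 2 farthest libraries and 0.285 after the group means were taken out.

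**Figure D4:**
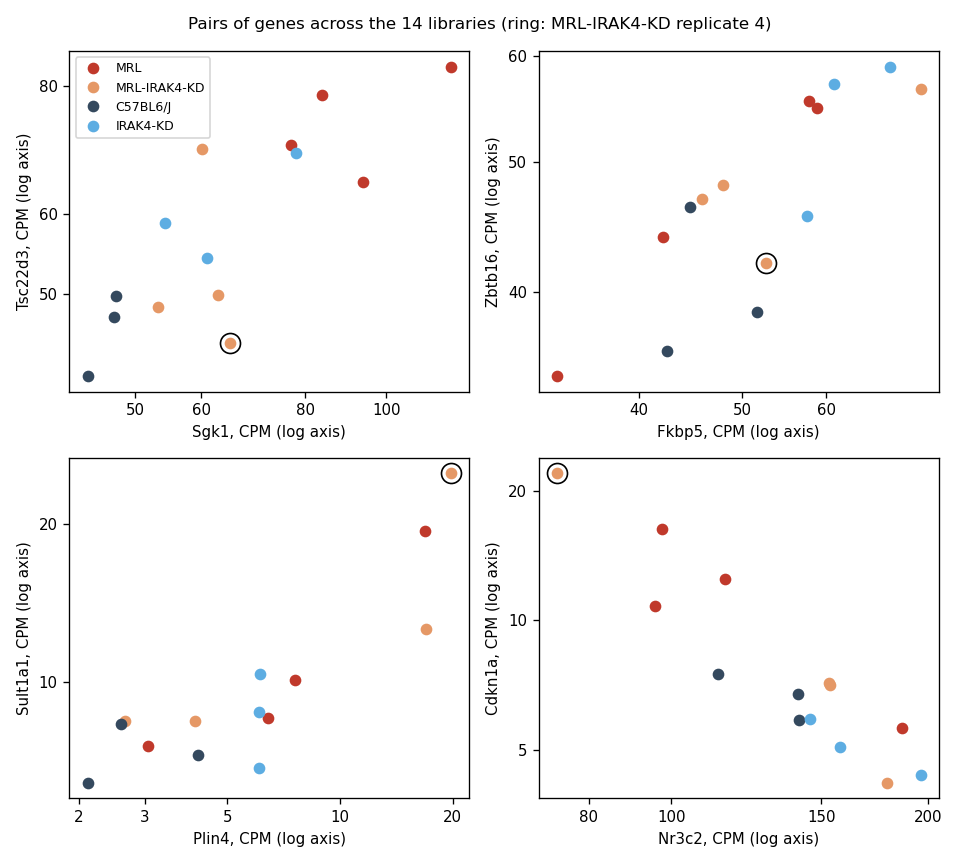
Levels in CPM on log axes of 4 pairs of genes, with each point a library coloured by group and a ring around MRL-IRAK4-KD replicate 4. The Sgk1 and Tsc22d3 points lie low for C57BL6/J and mostly high for MRL, with overlap between groups, whereas the other 3 pairs spread along their line within groups.

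The genes most like a member were taken from 16104 genes with a mean of at least 1 CPM by Pearson r over the 14 libraries. For Nr3c1 they included Ppm1l (0.878), Dusp3 (0.851), Far2 (0.844) and Lmbrd1 (0.821). For Nr3c2 they were Lmo3 (0.975), Cacnb2 (0.973), Prkca (0.967), Ppfia2 (0.966) and Slitrk3 (0.961). For Fkbp5 they were Mrtfa (0.881), Bcr (0.870), Kcnn2 (0.870), Olfml2b (0.867) and Map3k4 (0.866). Klf15, a known glucocorticoid target that was singled out after its values were seen, was the second most like both Sgk1 (0.858) and Tsc22d3 (0.867). In the order MRL, MRL-IRAK4-KD, C57BL6/J and IRAK4-KD it averaged 20.8 ± 2.07, 16.2 ± 2.19, 14.2 ± 1.09 and 15.9 ± 0.377 CPM. Its lowest MRL library was at 18.9 CPM and the highest library outside MRL, MRL-IRAK4-KD replicate 1, at 18.7 CPM. Since Klf15 was taken for its likeness to Sgk1 and Tsc22d3 over the same libraries, its likeness to them by group follows from that choice.

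Other gene lists also differed between MRL and MRL-IRAK4-KD, and in IRAK4-KD over C57BL6/J the lists ran in both directions. There Sgk1 and Tsc22d3 were at 0.48 and 0.39. The list medians were -0.55 (endothelial), -0.16 (neocortex), -0.56 (immediate early) and -1.14 (blood), but 0.79 (choroid plexus), 1.31 (striatal) and 0.36 (hippocampal). In IRAK4-KD the choroid plexus sum was high in replicate 2 and the striatal sum in replicate 3. The medians of the clock genes and microglial markers were 0.09 and 0.02. Of the 15 clock genes 14 were higher there, 3 of them at an unadjusted p under 0.05, against 3.8% of all genes. All 15 were positive in the interaction, 5 of them at an unadjusted p under 0.05, against 4.17% of all genes. The 8 endothelial markers summed to 180.5 to 332 CPM in MRL, 119 to 156 CPM in MRL-IRAK4-KD, 112 to 135 CPM in C57BL6/J and 81.2 to 92.8 CPM in IRAK4-KD. Of these 6 of 8 were higher in MRL than in MRL-IRAK4-KD at an unadjusted p under 0.05, against 11.4% of all genes. The anion transporter Slco1a4 was the one gene of any list here to pass adjustment in a comparison, and rose by 0.88 ± 0.15 on the log2 scale (adjusted p = 0.0434). Its adjusted p lay between 0.0114 and 0.185 when 1 MRL or MRL-IRAK4-KD library was left out. Of these it was under 0.05 only without MRL-IRAK4-KD replicate 2 or 4. When 1 library of the other groups, which share the estimate of spread, was left out, it lay between 0.0399 and 0.0835. Of those it was under 0.05 only without IRAK4-KD replicate 1. The 5 neocortex markers summed to 301 to 394 CPM in MRL replicates 2 to 4 and to 169.7 CPM in MRL replicate 1, against 132 to 246 CPM in the other groups. All 10 immediate early genes were higher in MRL than in MRL-IRAK4-KD at an unadjusted p under 0.05, against the same share, with 0 called. Their sum was 367 to 1299 CPM in MRL, 167 to 303 CPM in MRL-IRAK4-KD, 246 to 479.5 CPM in C57BL6/J and 236 to 312 CPM in IRAK4-KD. Of 15 clock genes 5 were higher and 0 lower at that level, against the same share of all genes. Their sum was 1182 to 1347 CPM in MRL, 859 to 1200.1 CPM in MRL-IRAK4-KD, 1063 to 1135 CPM in C57BL6/J and 1153 to 1207 CPM in IRAK4-KD. The sum of clock genes followed Tsc22d3 with a Pearson r of 0.784 and Sgk1 with one of 0.516, which were 0.898 and 0.839 without MRL-IRAK4-KD replicate 4, and the summed hippocampal markers followed Fkbp5 with 0.761 and Zbtb16 with 0.624, as descriptions over 14 libraries that share a dissection each. The 5 microglial markers summed to 306 to 398 CPM in MRL and 252 to 299 CPM elsewhere. The 5 blood markers summed to 83.9 to 369 CPM in MRL and 19.8 to 193 CPM elsewhere. The lists are not independent, since Abcb1a is both an endothelial marker and in the list of hormone metabolism and export. The clock and immediate early lists also hold a gene of an earlier list. The part of each list in the values of the members was not tested.

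**Figure D5:**
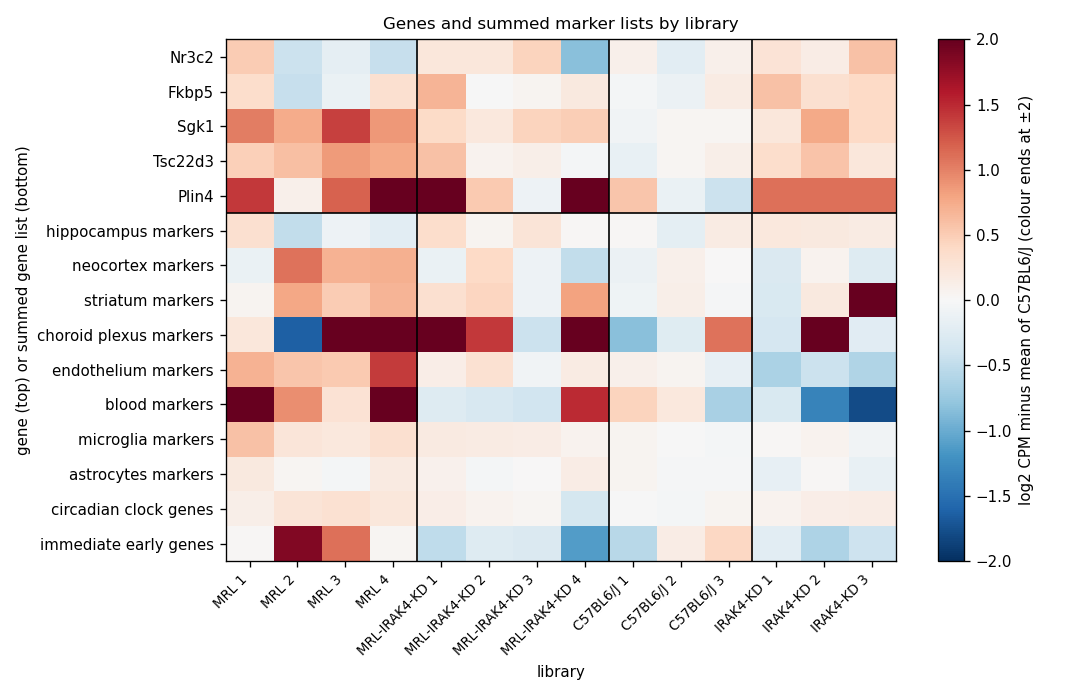
Level of 5 members (top) and summed CPM of marker and pathway lists (bottom) in each library, as the log2 difference from the mean of the 3 C57BL6/J libraries (colour, ending at 2 in either direction). Sgk1 and Tsc22d3 lie above that mean in every MRL library, neocortex markers most in MRL replicates 2 to 4, and choroid plexus markers pass the end of the scale in MRL replicates 3 and 4, MRL-IRAK4-KD replicates 1 and 4 and IRAK4-KD replicate 2.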

How the data were processed

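Poly(A) RNA of 14 mouse hippocampus libraries was analysed from the gene and transcript counts deposited by the authors. Per the labels' processing notes the tools were HISAT2 2.1.0, SAMtools 1.9, StringTie 2.1.0, R 4.0.5 and DESeq2 1.30.1 on mm10, in roles that the notes do not give. The deposited counts come to 1.40 per read of the authors' sheet of total read counts in MRL-IRAK4-KD replicate 4 and to 1.80 to 2.08 in the other libraries. They are therefore not single reads, and no counting interval was set on them. Rows outside Ensembl (26248 tRNA predictions and 97 spike-ins, 0.0254% to 0.188% of counts) were left out. Their share was also highest in MRL-IRAK4-KD replicate 4. IDs were paired with symbols and coordinates by GENCODE M21 on mm10. Strand of counting is not given in the sources used here, so reads of overlapping genes may be shared.

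The 38070 genes reaching a sum of 10 counts over all libraries were fitted in 1 model of 4 groups by edgeR 4.0.16 (TMM, robust quasi-likelihood test, R 4.3.3), with Benjamini-Hochberg adjustment over all genes and a threshold of 0.05. The interaction is MRL minus MRL-IRAK4-KD, less C57BL6/J minus IRAK4-KD. SE is the log2 fold change divided by the root of F. CPM use TMM-scaled totals, and TPM were computed from deposited transcript counts. Exact permutation tests used log2(CPM + 0.1). Correlations used 100000 permutations. Alternatives were DESeq2 1.42.0, limma-voom (limma 3.58.1), relative log expression factors, other filters, only the groups compared, a replicate block, each library left out, and, chosen after seeing the data, both libraries that stand apart left out. The fits were tested on simulated data. No 2 of the 91 pairs of libraries had identical counts. Named genes are the members, listed genes that passed adjustment, the 2 listed genes with the smallest p in MRL over MRL-IRAK4-KD in each pathway list, the 5 genes most like Nr3c1, Nr3c2 and Fkbp5, and transcripts with at least 10% of a member's counts; Klf15 and Hsd11b2 were added after their values were seen. Of the genes most like Nr3c1, 1 is not reported here. The members and lists were chosen with earlier results of these data known.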

Additional observations from a re-analysis of the deposited data

Results flagged for a closer look

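Cdkn1a in MRL-IRAK4-KD replicate 4, at 22.0 CPM, lay far from the other 3 libraries of its group, which were at 4.20 to 7.17 CPM. Its gap to the nearest of them, divided by the range of the group, was above Dixon's critical value for 4 libraries. Of 18 sets of 4 values tested this was the 1 to pass, and chance alone passes about 1 in 20 such sets. The same library stood apart on the first principal component.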

How the results depend on the processing

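Of 981 values of the 45 member comparisons under alternatives, 930 kept their direction and their side of the threshold, 8 passed the threshold, 0 lost it and 43 changed sign, in 13 comparisons. No called value changed sign. DESeq2 called more genes, with 395 in MRL over MRL-IRAK4-KD, 166 in IRAK4-KD over C57BL6/J, 197 in MRL over C57BL6/J, 283 in MRL-IRAK4-KD over IRAK4-KD and 59 for the interaction, and limma-voom with quality weights called 213, 145, 38, 275 and 22. The edgeR counts were 37, 56, 0, 28 and 1. The members called by DESeq2 were 1, 0, 2, 0 and 1 in that order, and limma-voom called 1 in MRL over MRL-IRAK4-KD and 1 in MRL over C57BL6/J. At an unadjusted p under 0.05 limma-voom had 4 members in MRL over MRL-IRAK4-KD, and DESeq2 and the fit with no filter had 1 in MRL-IRAK4-KD over IRAK4-KD. Fitting only the groups compared called 18, 95 and 6 genes in MRL over MRL-IRAK4-KD, IRAK4-KD over C57BL6/J and MRL-IRAK4-KD over IRAK4-KD, and gave 7 members at an unadjusted p under 0.05 in IRAK4-KD over C57BL6/J and 5 in MRL over C57BL6/J. For the interaction no filter gave 4 genes, the replicate block 2 and leaving out both libraries that stand apart 11. That last setting, chosen after seeing the data, called 20 genes and 1 member in MRL over C57BL6/J. Same-numbered libraries had deviations correlated at -0.251 to 0.375, so the numbers did not pair the samples. The replicate block called 34, 48, 0, 23 and 2 genes and 0 members. The cause of these shifts was not tested.

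Leaving out 1 library at a time gave 25 to 52 genes in MRL over MRL-IRAK4-KD, 33 to 106 in IRAK4-KD over C57BL6/J, 0 to 21 in MRL over C57BL6/J, 11 to 65 in MRL-IRAK4-KD over IRAK4-KD and 1 to 15 for the interaction. Members called were 0 to 1 in MRL over C57BL6/J. Members at an unadjusted p under 0.05 were 1 to 4 in IRAK4-KD over C57BL6/J and 0 to 2 in MRL-IRAK4-KD over IRAK4-KD.

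The log2 fold changes that changed sign were these, none of them called in the fit of all 4 groups. In MRL over MRL-IRAK4-KD, Plin4 was 0.45 by limma-voom, 0.087 without both libraries and -0.91 to 0.10 with 1 library left out, and Sult1a1 was 0.12, 0.205 and -0.62 to 0.22. Zbtb16 ranged from -0.12 to 0.10 and Cdkn1a from -0.068 to 0.89 with 1 library left out. In MRL over C57BL6/J, Nr3c2 was 0.086 with the replicate block and -0.34 to 0.032 with 1 library left out, and Fkbp5 was -0.016 by limma-voom, -0.029 with the replicate block and -0.044 to 0.20 with 1 library left out. In MRL-IRAK4-KD over IRAK4-KD, Nr3c1 was 0.084 without both libraries and -0.12 to 0.060 with 1 left out, Nr3c2 was 0.030 by limma-voom and 0.091 without both, Plin4 was -0.20 by limma-voom, and Sgk1 ranged from -0.20 to 0.056 with 1 left out. For the interaction, Nr3c2 was -0.22 by limma-voom, -0.18 without both and -0.11 to 0.32 with 1 left out. Sult1a1 was 0.34 by limma-voom, 0.0080 with the replicate block, 0.59 without both and -0.38 to 0.46 with 1 left out. Cdkn1a was 0.64, 0.0037, 0.59 and -0.46 to 0.50 in the same order. With 3 or 4 libraries a group, a member's change of the size of the SEs given could not be told from 0.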
